A study of Mus musculus with 6 samples.

Results

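A set of 10 angiogenic and growth factor genes was followed in tumor-associated macrophages (TAMs): Vegfa, Nrp1, Pdgfb, Hbegf, Areg, Ereg, Igf1, Tgfb1, Osm and Csf1. The genes were chosen by symbol, as the rows of the count table that carry these names, and made up 10 of its 39179 rows. TAMs were sorted from subcutaneous tumors of a Braf-driven mouse melanoma line in C57BL/6 hosts that were 8 weeks old. In the Ptgs-competent group (3 libraries) the mice had been injected with wildtype tumor cells, and in the Ptgs-deficient group (3 libraries) with tumor cells lacking Ptgs1 and Ptgs2, the genes of the cyclooxygenases that start prostaglandin synthesis. The line and its edit define the tumor cells only. The macrophages came from unedited hosts in both groups, so no knocked-out gene can check the labels in the sorted cells. Each library was a pool of tumors, the sort kept live CD45+ CD11b+ F4/80+ cells negative for NK1.1 and Ly6G and negative or dim for Ly6C, and the labels give no day of harvest. The comparison asks how the growth factor transcripts of TAMs differ with the ability of the tumor cells to make prostaglandins.

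Growth factors are secreted or membrane-bound proteins that bind receptors on neighboring cells, many of them receptor tyrosine kinases, and drive growth, survival, migration and vessel formation. Macrophages are a well-known source of them during wound repair and in tumors, where vascular endothelial growth factor, platelet-derived growth factor and epidermal growth factor receptor (EGFR) ligands act on endothelial cells, mural cells, fibroblasts and tumor cells. Several are regulated after transcription, since the EGFR ligands are made as membrane precursors that ADAM proteases release and transforming growth factor beta is stored in a latent form. Transcript levels do not show these later steps.

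No member passed the study's threshold, an adjusted p of 0.05 or lower with a log2 fold change of at least 1.5 in either direction, in the edgeR quasi-likelihood test. Of all 8793 tested genes 19 passed it (0.216%), 0.159% higher and 0.0569% lower in Ptgs-deficient TAMs. The edgeR likelihood ratio test and DESeq2 each called 2 of the 10 members, Igf1 and Nrp1, both higher, against 2.74% and 3.83% of all genes they tested. The quasi-likelihood test without a filter on low counts called the same 2 members (1.89% of all genes), and limma voom with quality weights called 1, Nrp1 (1.4%). Nrp1, Igf1 and Osm had higher levels in every Ptgs-deficient library than in any Ptgs-competent library and an unadjusted p under 0.05 (3 of 10 members, against 5% of all tested genes that were higher at that p and 8.83% in either direction). Pdgfb was also higher, and Ereg lower, in every Ptgs-deficient library, with unadjusted p-values of 0.0998 and 0.107. The ranges of the groups thus did not overlap for 5 of 10 members, against 19% of all tested genes, of which 11% were higher and 8.01% lower in the Ptgs-deficient group. This count includes Pdgfb, Ereg and Igf1, which passed the filter on low counts through the group where they were high. They were thereby favored to separate. Igf1 is also in the count of 3 of 10 members above, and nothing is read from either count about the set. The remaining members, Vegfa, Tgfb1, Hbegf, Areg and Csf1, overlapped between groups. The median log2 fold change over the members was 0.24, with 5 positive and 5 negative values, beside 0.02 over all tested genes.

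All 10 members held counts and passed the filter on low counts. Pdgfb held fewer than 10 counts in each Ptgs-competent library, and Ereg was counted in a single Ptgs-deficient library. Igf1 held 11 and 2 counts in Ptgs-competent replicates 2 and 3. Pdgfb, Ereg and Igf1 thus entered the test through their high group. Library totals ran from 4431184 to 8760679 counts, at which 3 counts, used here as the floor of each library, correspond to 0.357 to 0.647 CPM (counts scaled to a common library size, by TMM). Libraries of one group differed widely, with Pearson correlations of log2 CPM across genes of 0.480 to 0.553 among Ptgs-competent and 0.5999 to 0.720 among Ptgs-deficient libraries, beside 0.407 to 0.620 between groups. Between 3.40% and 21.6% of the tested genes held 0 counts in a given library. All 12 macrophage markers were counted, with summed levels of 20145, 20391 and 7602 CPM in Ptgs-competent replicates 1, 2 and 3 and 25866, 25608 and 31045 CPM in the Ptgs-deficient ones. In bulk libraries fewer cells of a type and less RNA per cell cannot be told apart, and a difference in a transcript can come from either.

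**Figure D1:**
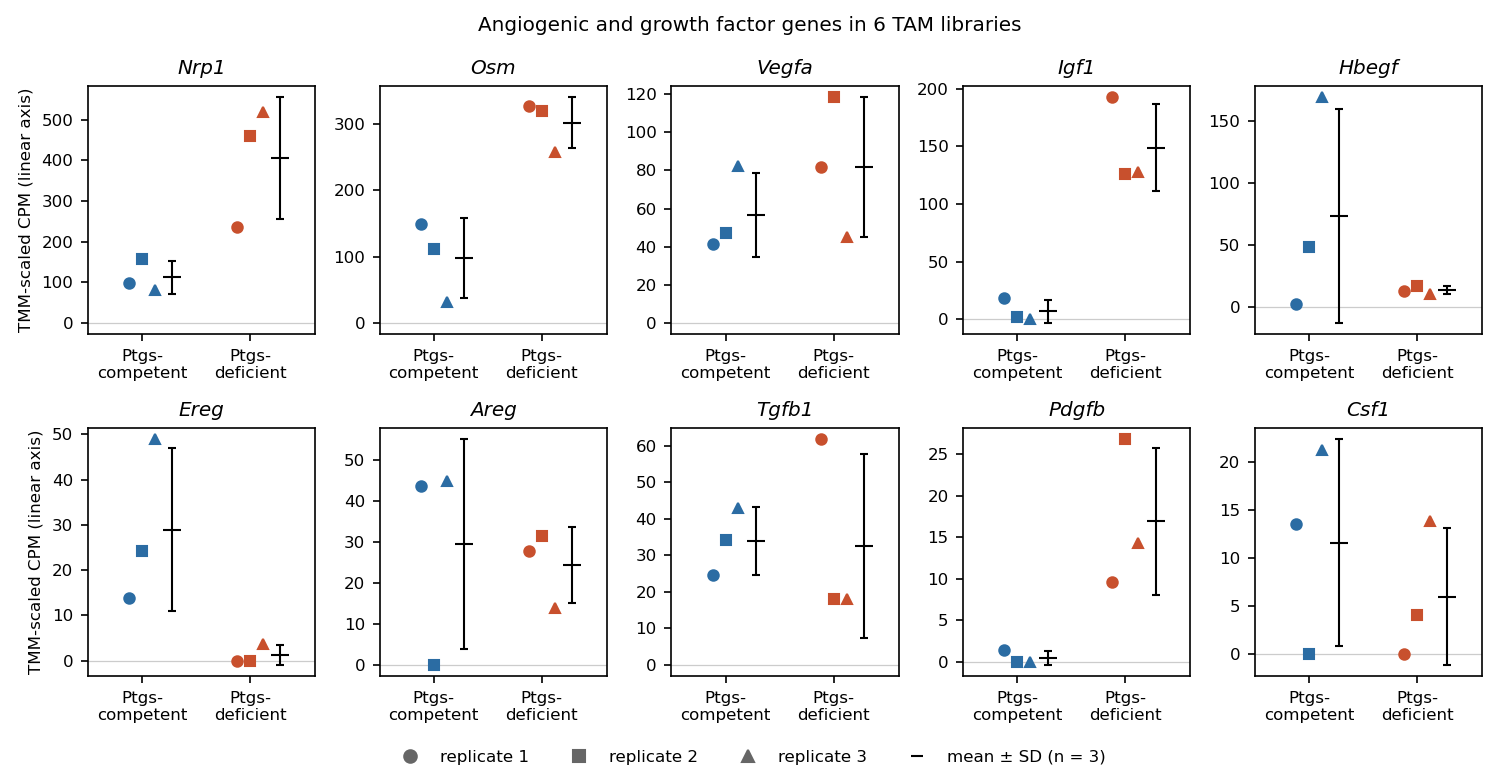
TMM-scaled CPM of the 10 members in each library (points, 3 per group) with the mean and SD beside them (bar and whiskers, which can reach below 0), on a linear y axis of its own in each panel. The groups do not overlap for Nrp1, Osm, Igf1 and Pdgfb, which are higher in Ptgs-deficient TAMs, or for Ereg, which is lower, and a single Ptgs-competent library at 169 CPM sets the Hbegf mean.

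The promoters of 3 members are shown over the 100 bases upstream of a RefSeq start site, read in the direction of transcription. Areg is shown for a full cyclic AMP response element. This sequence is bound by factors of the pathway that the prostaglandin E2 receptors EP2 and EP4 signal through. Nrp1 is shown for being the member with the smallest p, and Vegfa, by the first of its 2 entries, as the central angiogenic factor. Capitals mark the cyclic AMP response element, TGACGTCA. They also mark the GC box, which was searched as GGGCGG on both strands. The TATA box, searched as TATAAA, is marked in the same way. Neither the AP-1 site, searched as TGAGTCA, nor the core of the hypoxia response element, searched as ACGTG, is present in these stretches. Sequences are from RefSeq (GRCm38.p6), in which 6 of the 10 members had an entry. The RefSeq start of Nrp1 (128359073) lies downstream of its GENCODE start (128358604). Its stretch is thus upstream of the RefSeq start only and lies inside the gene span given below.
Areg, chr5:91139499-91139598, plus strand: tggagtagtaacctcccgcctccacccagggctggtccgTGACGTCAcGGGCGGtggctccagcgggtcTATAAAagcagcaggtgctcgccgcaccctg
Nrp1, chr8:128358973-128359072, plus strand: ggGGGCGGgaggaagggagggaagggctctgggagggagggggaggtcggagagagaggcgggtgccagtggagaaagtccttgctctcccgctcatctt
Vegfa, chr17:46032378-46032477, minus strand: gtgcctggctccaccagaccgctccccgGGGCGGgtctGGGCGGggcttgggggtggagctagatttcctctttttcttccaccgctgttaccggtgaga

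In windows from 250 bases before to 50 bases after the start, the full response element was present in 588 of 32851 windows (1.79%), and of the members with an entry Areg alone held it, 61 bases upstream of its start. The TATA box letters were held by 13.6% of windows and lay 31 bases upstream of the Areg start. The GC box was held by 35.7% of windows and occurred in those of Areg, Csf1, Tgfb1, Nrp1 and Vegfa. The AP-1 letters were held by 5.2% and the hypoxia response core by 19.6% of windows. Of the 6 members with an entry, only Vegfa held the core, 211 bases upstream of the start in its second entry, and none of the 6 held the AP-1 letters. None of the motifs contains another, and all are matches of letters only.

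Among the angiogenic members, Nrp1 and Pdgfb stood higher in Ptgs-deficient TAMs, and Vegfa did not separate the groups. Nrp1 (chr8:128358604-128503363, GRCm38, plus strand) encodes neuropilin-1, a co-receptor for VEGF-A and class 3 semaphorins that macrophages also carry. Its counts were 610, 961 and 371 in Ptgs-competent replicates 1, 2 and 3 and 1289, 3868 and 2515 in Ptgs-deficient replicates 1, 2 and 3. On the TMM scale these were 97.2, 158 and 80.0 CPM against 235, 461 and 520.4 CPM. Every Ptgs-deficient library lay above every Ptgs-competent one, the nearest pair 1.49-fold apart. The means were 112 ± 40.8 and 405 ± 150.4 CPM (SD, n = 3 each), a 3.63-fold difference. The fitted log2 fold change, given from here on as the log2 ratio of Ptgs-deficient over Ptgs-competent TAMs, was 1.86 ± 0.44 (SE), with an adjusted p of 0.158 by the edgeR quasi-likelihood test. Nrp1 had the smallest p of the members, rank 90 among the 8793 tested genes. The edgeR likelihood ratio test gave an adjusted p of 0.0284, DESeq2 0.00774, limma voom with quality weights 0.0226 and the quasi-likelihood test without a filter on low counts 0.00846, so that Nrp1 was called or not depending on the test and filter. Leaving out single libraries gave adjusted p-values in edgeR from 0.181 to 0.605, with log2 fold changes of 1.65 to 2.20.

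The genes whose pattern over the 6 libraries was most like that of Nrp1, by Pearson correlation of log2 CPM among 8792 others, were Ccl6 (r = 0.992), Tob2 (0.992), Rpl10 (0.991), Naaa (0.990) and Serp1 (0.989). These values describe 6 libraries that fall into groups of 3. Ccl6, a chemokine of myeloid cells, was the most abundant of them, at means of 2511 and 6208 CPM in Ptgs-competent and Ptgs-deficient TAMs.

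Pdgfb (chr15:79995874-80014977, minus strand) encodes the B chain of platelet-derived growth factor, which recruits pericytes and activates fibroblasts. It was counted 9, 0 and 0 times in the Ptgs-competent libraries and 53, 225 and 69 times in the Ptgs-deficient ones. The CPM values were 1.43, 0 and 0 against 9.67, 26.8 and 14.3. The Ptgs-competent group thus sat near or under the floor, in which 2 of 3 libraries held no read. Means were 0.478 ± 0.828 and 16.9 ± 8.86 CPM (SD, n = 3 each), with a log2 ratio of 5.07 ± 2.80 (SE) and an adjusted p of 0.779 in edgeR. Without Ptgs-competent replicate 1, the difference was a bound only, at least 29.7-fold higher in Ptgs-deficient TAMs.

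Vegfa (chr17:46016993-46032369, minus strand) encodes VEGF-A, the main inducer of blood vessel growth. Its counts were 258, 286 and 381 in Ptgs-competent and 449, 994 and 218 in Ptgs-deficient TAMs. The levels of 41.1, 46.9 and 82.1 CPM overlapped with those of 81.9, 118 and 45.1 CPM. Ptgs-deficient replicates 1 and 3 lay inside the Ptgs-competent range. With means of 56.7 ± 22.2 and 81.8 ± 36.6 CPM (SD, n = 3 each), Vegfa had a log2 ratio of 0.53 ± 0.65 (SE) and an adjusted p of 0.9995 in edgeR. Leaving out single libraries moved the ratio between 0.16 and 0.95.

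The EGFR ligands Hbegf, Areg and Ereg had lower means in Ptgs-deficient TAMs, and of these only Ereg separated the groups. Ereg (chr5:91074622-91093646, plus strand) encodes epiregulin, and ends 45952 bases before the start of its neighbor Areg. It was counted 87, 147 and 227 times in the Ptgs-competent libraries and 0, 0 and 18 times in the Ptgs-deficient ones. In CPM this was 13.9, 24.1 and 48.9 against 0, 0 and 3.72. The lowest Ptgs-competent library lay 3.72-fold above the highest Ptgs-deficient one. Means of 29.0 ± 18.0 and 1.24 ± 2.15 CPM (SD, n = 3 each) gave a log2 ratio of -4.53 ± 2.56 (SE), with an adjusted p of 0.805 in edgeR. The means were 23.3-fold apart. Ptgs-deficient replicate 3 was the only library of that group with reads. Without it the bound was 64.1-fold, which leaves those reads out and is no floor for the whole group, and edgeR gave an adjusted p of 0.688.

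Hbegf lies on chromosome 18 and encodes heparin-binding EGF-like growth factor, a mitogen for smooth muscle cells and fibroblasts. Its counts were 15, 297 and 786 in Ptgs-competent and 73, 144 and 50 in Ptgs-deficient TAMs. Ptgs-competent replicate 1, at 2.39 CPM, was the lowest of all 6 libraries, and replicates 2 and 3, at 48.7 and 169 CPM, were the highest, a 70.9-fold range within the group. The Ptgs-deficient libraries lay between them at 13.3, 17.1 and 10.3 CPM. The means of 73.5 ± 86.2 and 13.6 ± 3.41 CPM (SD, n = 3 each) were 5.40-fold apart, with a log2 ratio of -2.43 ± 1.27 (SE) and an adjusted p of 0.739 in edgeR. Without Ptgs-competent replicate 3 the Ptgs-competent mean dropped to 25.6 CPM and the log2 ratio became -0.84, and with voom quality weights it was -0.15. Without Ptgs-competent replicate 1, the low library, the ratio was -2.99 with an adjusted p of 0.238 in edgeR.

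Areg (chr5:91139599-91148432, plus strand) encodes amphiregulin, a ligand made by many immune cells in tissue repair. It was counted 273, 0 and 208 times in Ptgs-competent and 152, 264 and 67 times in Ptgs-deficient TAMs. The levels were 43.5, 0 and 44.8 CPM in the first group and 27.7, 31.4 and 13.9 CPM in the second. A single Ptgs-competent library without a read lay below the whole Ptgs-deficient range and the other two lay above it. Means of 29.4 ± 25.5 and 24.3 ± 9.26 CPM (SD, n = 3 each) gave a log2 ratio of -0.27 ± 1.73 (SE) and an adjusted p of 0.9995 in edgeR. The sign turned positive without Ptgs-competent replicate 1 (0.13), Ptgs-competent replicate 3 (0.19) or Ptgs-deficient replicate 3 (0.01) and with voom (1.95), whereas without Ptgs-competent replicate 2 the value was -0.86.

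Igf1 (chr10:87858265-87937042, plus strand) encodes insulin-like growth factor 1, which tissue macrophages release in muscle and skin repair. It was counted 114, 11 and 2 times in the Ptgs-competent libraries and 1056, 1060 and 617 times in the Ptgs-deficient ones. The levels were 18.2, 1.81 and 0.431 CPM against 193, 126 and 128 CPM. Ptgs-deficient libraries lay close together, whereas the Ptgs-competent ones differed widely and replicate 3 lay under the floor. The nearest pair across groups was 6.95-fold apart. With means of 6.80 ± 9.87 and 149 ± 38 CPM (SD, n = 3 each) the difference was 21.9-fold, at a log2 ratio of 4.44 ± 1.18 (SE) and an adjusted p of 0.208 in edgeR. The adjusted p was 0.0153 by the edgeR likelihood ratio test, 0.00298 by DESeq2, 0.284 by limma voom and 5.28e-05 by the quasi-likelihood test without a filter. Leaving out single libraries gave 0.0568 to 0.587 in edgeR, and without Ptgs-competent replicate 1 the mean of that group was 1.12 CPM.

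Tgfb1 (chr7:25687002-25705077, plus strand) encodes transforming growth factor beta 1, which restrains immune cells and induces matrix production. Its counts were 154, 208 and 200 in Ptgs-competent and 339, 151 and 87 in Ptgs-deficient TAMs. Ptgs-competent libraries stood at 24.5, 34.1 and 43.1 CPM. The Ptgs-deficient ones enclosed them, with replicate 1 at 61.9 CPM and replicates 2 and 3 at 18.0 CPM each. The means were 33.9 ± 9.29 and 32.6 ± 25.3 CPM (SD, n = 3 each), and the log2 ratio was -0.06 ± 1.06 (SE) with an adjusted p of 0.9995 in edgeR. Its sign changed when Ptgs-competent replicate 3 (0.21), Ptgs-deficient replicate 2 (0.24) or Ptgs-deficient replicate 3 (0.24) was left out.

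Of the cytokine members, Osm stood higher in Ptgs-deficient TAMs and Csf1 was low and variable. Osm (chr11:4236420-4241026, plus strand) encodes oncostatin M, a cytokine of the interleukin-6 family that acts on stromal and endothelial cells. It was counted 939, 680 and 147 times in Ptgs-competent and 1797, 2688 and 1245 times in Ptgs-deficient TAMs. The levels were 149.7, 112 and 31.7 CPM against 328, 320.1 and 258 CPM. The Ptgs-deficient libraries lay within 1.27-fold of each other, the narrowest range of any member, and the nearest pair across groups was 1.72-fold apart. Means of 97.7 ± 60.2 and 302 ± 38.5 CPM (SD, n = 3 each) differed 3.09-fold, with a log2 ratio of 1.63 ± 0.53 (SE) and an adjusted p of 0.327 in edgeR. Without Ptgs-competent replicate 3 the log2 fold change was 1.26 with an adjusted p of 0.274 in edgeR.

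Csf1 (chr3:107741048-107760469, minus strand) encodes colony-stimulating factor 1, which macrophages need to survive and multiply. It was counted 85, 0 and 99 times in Ptgs-competent and 0, 34 and 67 times in Ptgs-deficient TAMs, or 13.5, 0 and 21.3 CPM against 0, 4.05 and 13.9 CPM. A library without a read occurred in each group. With means of 11.6 ± 10.8 and 5.97 ± 7.13 CPM (SD, n = 3 each), Csf1 had a log2 ratio of -0.96 ± 2.67 (SE) and an adjusted p of 0.9995 in edgeR. The ratio lay between -2.50 without Ptgs-deficient replicate 3 and -0.16 without Ptgs-competent replicate 3, and was positive with voom (0.34).

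**Figure D2:**
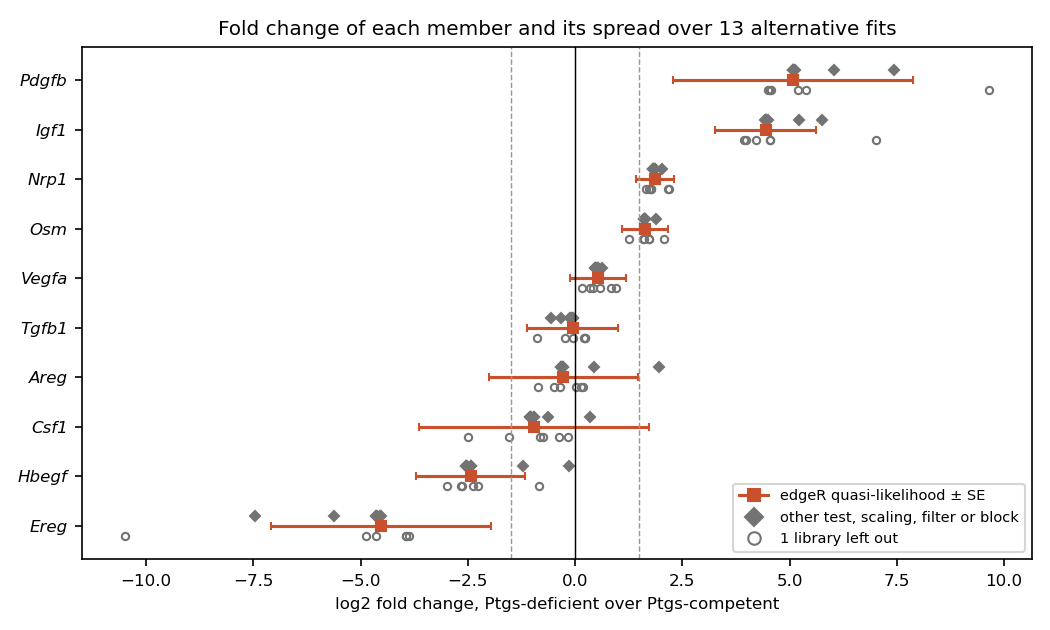
Log2 fold change of each member (x axis, Ptgs-deficient over Ptgs-competent, 3 libraries a group) with its SE by the edgeR quasi-likelihood test (squares), beside its values under other tests, scalings, filters or a block (diamonds) and with 1 library left out (open circles), and dashed lines at 1.5 in either direction. Nrp1 at 1.86 and Osm at 1.63 have the shortest error bars among the members higher in Ptgs-deficient TAMs, and Pdgfb, Csf1 and Ereg, each with libraries at 0 counts, have the longest.

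Reads come from the 3′ end of the transcript, so that levels do not grow with transcript length and can be set beside each other within a library. Nrp1 and Osm had the highest means of the members in both groups, although in Ptgs-competent replicate 3 Hbegf ranked 1 and Osm 7 of the 10. Without Ptgs-competent replicate 1 the Hbegf mean of that group, 109 CPM, lay above the 71.6 CPM of Osm. They made up 24.8% and 21.7% of the members' summed mean CPM in Ptgs-competent TAMs and 39.3% and 29.2% in Ptgs-deficient TAMs. Hbegf made up 16.3% in the first group, mostly through replicate 3, and 1.32% in the second, and Igf1 1.51% and 14.4%. The sum over the members was 405, 425 and 522 CPM in Ptgs-competent and 950.3, 1123 and 1025 CPM in Ptgs-deficient libraries. Neighbors in the order of means were often within each other's spread, such as Tgfb1 and Areg in either group.

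The receptors of the members were measured in the same libraries. Of 30 listed receptors 25 held a count, 20 were tested and 0 passed the threshold in the edgeR quasi-likelihood test, with 1 higher and 2 lower at an unadjusted p under 0.05 (8.83% of all tested genes) and a median log2 fold change of -0.01. Igf1r, among the lower, passed the filter on low counts through its high group, and nothing is read from this count. DESeq2 and the quasi-likelihood test without a filter each called Igf1r, and the likelihood ratio test and voom called none. Csf1r, the receptor of Csf1 and a macrophage marker, was abundant at means of 1056 and 1110 CPM and had a log2 ratio of 0.07 ± 0.57 (SE). Its counts were 8654, 9498 and 1070 in Ptgs-competent and 7071, 6690 and 6010 in Ptgs-deficient TAMs. Ptgs-competent replicate 3, in which the macrophage sum, Osm and Nrp1 were also lowest, had the lowest level of Csf1r at 230.6 CPM.

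Nrp2, the paralog of Nrp1, lay in the opposite direction. It was counted 2564, 2459 and 2563 times in Ptgs-competent and 1187, 1030 and 1166 times in Ptgs-deficient TAMs, at means of 455 ± 84.5 and 194 ± 62.6 CPM (SD, n = 3 each). The groups did not overlap, and the log2 ratio was -1.23 ± 0.37 (SE) with an adjusted p of 0.270 in edgeR. Igf1r, the receptor of Igf1, was likewise opposite to its ligand, with 237, 793 and 243 counts in Ptgs-competent and 0, 41 and 0 in Ptgs-deficient TAMs. Its means of 73.4 and 1.63 CPM were 45.1-fold apart, at a log2 ratio of -5.44 ± 1.90 (SE) with an adjusted p of 0.376 in edgeR. Ptgs-deficient replicate 2 was the only library of that group with reads. Without it the bound of Igf1r was 125.7-fold, which leaves those reads out and is no floor for the whole group. Insr, the related insulin receptor, had a log2 ratio of -2.10 ± 1.32 (SE) with overlapping groups.

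Tgfbr2, which binds transforming growth factor beta first, was counted 402, 108 and 110 times in Ptgs-competent and 719, 746 and 468 times in Ptgs-deficient TAMs. Its groups did not overlap, at a log2 ratio of 1.59 ± 0.69 (SE) and an adjusted p of 0.529 in edgeR, while its partner Tgfbr1 lay at 49.0 and 41.3 CPM. The receptors of EGFR ligands were scarce, with Erbb4 at 0 counts in every library and Egfr at 0, 1 and 0 against 0, 60 and 26 counts, too few for the filter. Osmr was at 0 counts throughout, and Il6st, the shared signaling chain, overlapped at means of 24.5 and 34.7 CPM. For the VEGF receptors, Flt1 lay at 29.3 and 18.7 CPM and Kdr, a marker of endothelial cells, was counted 95, 0 and 0 times against 0, 58 and 18. Pdgfrb, a fibroblast marker here, was counted 0, 66 and 389 times against 49, 0 and 0, and Pdgfra 81 times in a single Ptgs-competent library.

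Of 29 other growth factor ligands 17 held a count, 8 were tested and 0 passed the threshold in the edgeR quasi-likelihood test, with 2 higher and 0 lower at an unadjusted p under 0.05 (8.83% of all tested genes) and a median log2 fold change of -0.12. Pdgfc, among the higher, passed the filter on low counts through its high group, and nothing is read from this count. Gas6 was called by the likelihood ratio test, DESeq2, voom and the quasi-likelihood test without a filter, Pdgfc by the first pair of these, and Sema3a without a filter only. Gas6, the ligand of the macrophage receptors Axl and Mertk, was counted 2756, 5057 and 1443 times in Ptgs-competent and 6760, 17877 and 8480 times in Ptgs-deficient TAMs. Its groups did not overlap, with means of 527 ± 270.3 and 1706 ± 449.7 CPM (SD, n = 3 each), a log2 ratio of 1.69 ± 0.41 (SE) and an adjusted p of 0.166 in edgeR. Pdgfc, a second platelet-derived growth factor, had the pattern of Pdgfb. It was counted 0 times in each Ptgs-competent library and 83, 190 and 59 times in the Ptgs-deficient ones, at least 30.9-fold higher. Gdf15 and Pdgfa overlapped between groups, at log2 ratios of 0.76 ± 0.47 and -1.79 ± 1.63 (SE).

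Genes that release, store or bind growth factors included both directions. Of 28 listed 23 held a count, 17 were tested and 0 passed the threshold in the edgeR quasi-likelihood test, with 3 higher and 2 lower at an unadjusted p under 0.05 (8.83% of all tested genes) and a median of 0.06. Adam9 and Adam10, among the higher, passed the filter on low counts through their high group, and nothing is read from this count. Mmp14 was called by the likelihood ratio test, DESeq2, voom and the quasi-likelihood test without a filter, Adam9 by these except voom, Adam10 by DESeq2 and Adam8 by voom. Mmp14, a membrane metalloprotease that degrades matrix, was counted 5325, 3900 and 1598 times in Ptgs-competent and 830, 265 and 506 times in Ptgs-deficient TAMs. Its groups were far apart, with means of 611 ± 253 and 95.9 ± 60.4 CPM (SD, n = 3 each) and a log2 ratio of -2.67 ± 0.58 (SE) with an adjusted p of 0.114 in edgeR. Adam17, the main protease that releases Areg, Ereg and Hbegf, overlapped at 186 ± 29.1 and 200.1 ± 32.7 CPM (SD, n = 3 each).

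Of the other ADAM proteases, Adam10 was counted 1, 35 and 7 times in Ptgs-competent and 455, 429 and 261 times in Ptgs-deficient TAMs, at a log2 ratio of 4.65 ± 1.47 (SE) and an adjusted p of 0.2998 in edgeR. Adam9 was counted 0 times in each Ptgs-competent library and 15, 965 and 192 times in the Ptgs-deficient ones. It was at least 97.3-fold higher, and at least 39.4-fold higher without Ptgs-deficient replicate 2. Adam8 was lower in mean in Ptgs-deficient TAMs, at a log2 ratio of -1.36 ± 0.42 (SE) with overlapping groups. Nrros, which tethers latent transforming growth factor beta on macrophages and was named after its values were seen, completed the genes with an unadjusted p under 0.05 at a log2 ratio of 1.28 ± 0.46 (SE).

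Of 35 response genes of the growth factor pathways 33 held a count and 30 were tested, 18 with negative and 12 with positive values, at a median log2 fold change of -0.41 beside 0.02 over all genes. None of these 30 passed the threshold in the edgeR quasi-likelihood test, and 1 was higher and 3 lower at an unadjusted p under 0.05 (8.83% of all tested genes). Etv4, among the lower, passed the filter on low counts through its high group, and nothing is read from this count. Dusp6 was called by the likelihood ratio test, DESeq2, voom and the quasi-likelihood test without a filter, Etv4 by the likelihood ratio test and DESeq2, and Cebpb without a filter only. Dusp6, a phosphatase induced by and acting on ERK kinases, was counted 2696, 2523 and 1873 times in Ptgs-competent and 706, 990 and 687 times in Ptgs-deficient TAMs. Its libraries were close within each group, at 429.7, 414 and 404 CPM against 129, 118 and 142 CPM. Dusp6 had a log2 ratio of -1.68 ± 0.32 (SE) and an adjusted p of 0.0812 in the edgeR quasi-likelihood test, the smallest p of all members and listed pathway genes. Etv4, another ERK-induced gene, was counted 63, 268 and 84 times in Ptgs-competent and 0 times in each Ptgs-deficient library, at least 47.3-fold lower. Without Ptgs-competent replicate 2 this bound was 27.7-fold. Cebpb and Tgfbi overlapped between groups, Cebpb at a log2 ratio of 2.28 ± 0.73 (SE) and Tgfbi with means of 2094 ± 1295 and 1044 ± 139.6 CPM (SD, n = 3 each). Ptgs-deficient replicate 2 stood apart for Cebpb, at 464.5 CPM beside 64.2 and 124 CPM in replicates 1 and 3.

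**Figure D3:**
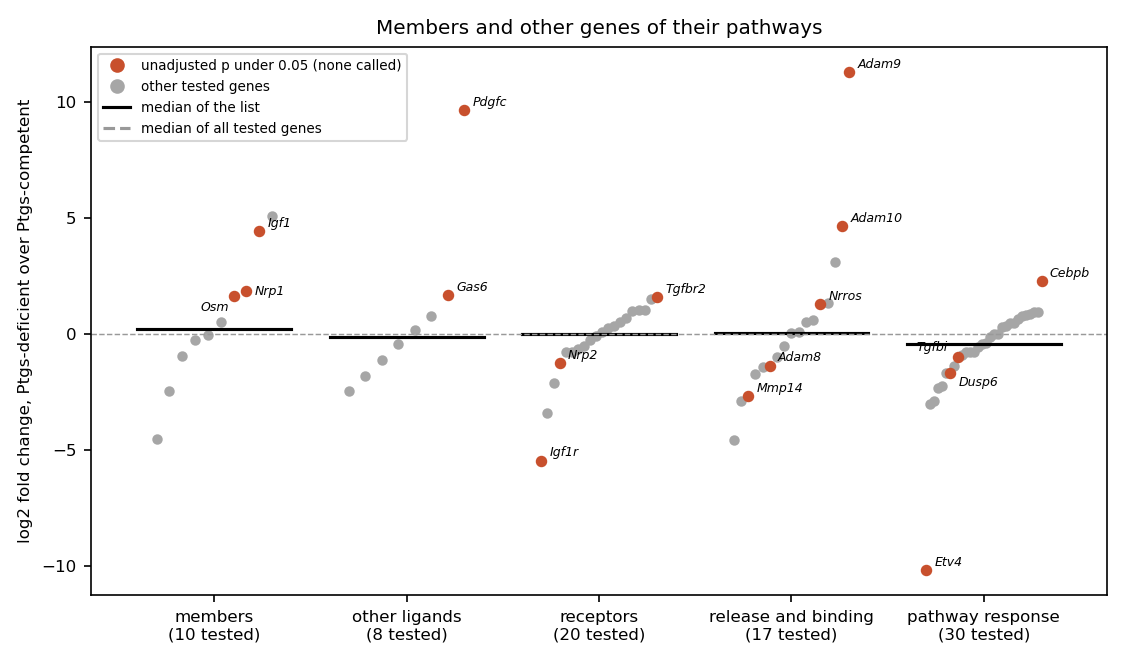
Log2 fold change (y axis, Ptgs-deficient over Ptgs-competent) of the members and of the tested genes in each of the 4 pathway lists (columns, genes in ascending order), with named points at an unadjusted p under 0.05, the median of each list (black line) and that of all tested genes (dashed line). The list medians lie between -0.41 and 0.24, and the points furthest from 0 (Adam9, Pdgfc and Etv4) are fitted values of genes without reads in one group, whose size depends on the prior count.

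Markers of other cells moved with some members. The summed level of 16 melanoma cell markers, 6 of them without a count in any library (Pmel, Tyr, Tyrp1, Dct, Mlana and Sox10), was 488, 1084 and 1878 CPM in Ptgs-competent and 147, 134 and 158.5 CPM in Ptgs-deficient libraries. Mitf, a melanocyte lineage gene of the list, went the other way, at 1.91, 0 and 0.647 CPM against 10.6, 44.3 and 18.2 CPM. Sparc and Cald1, which mesenchymal cells also express, made up much of the sum, with Sparc at 179.8 CPM and Cald1 at 156 CPM in Ptgs-competent replicate 1. Fermt2, Sparc, Prkg2, Cald1 and Cav1 ranked 21, 36, 50, 62 and 106 by p among all tested genes in this same comparison. The list was chosen with earlier results of these data known, so the separation of the groups by its sum does not stand apart from that choice. Hbegf, Ereg, Vegfa and Tgfb1 all followed the order of the sum over the Ptgs-competent libraries, lowest in replicate 1 and highest in replicate 3. The 12 fibroblast markers, Lum and Fap at 0 throughout, summed to 157 to 367 CPM against 20.1 to 51.4 CPM. The 12 endothelial markers, of which Cdh5, Tek, Tie1, Cldn5, Emcn and Robo4 were at 0 throughout, summed to 117 to 299 CPM against 37.5 to 71.9 CPM. Pecam1 and Plvap made up most of this in the Ptgs-competent libraries. Vwf of the same list had the higher mean in Ptgs-deficient TAMs, 7.39 against 0.159 CPM, and Kdr overlapped between groups. Each of these sums was higher in every Ptgs-competent library, as was the level of Ereg, and their part in the lower Ereg and Hbegf means was not tested. The sort for CD45+ CD11b+ F4/80+ cells was set to remove intact cells of these types. The macrophage sum was higher in every Ptgs-deficient library, as were Nrp1, Osm, Igf1 and Pdgfb, and its part in those differences was not tested. The dendritic cell list, 10 genes with Zbtb46, Xcr1 and Ccr7 at 0 throughout, also had a higher sum in every Ptgs-deficient library, at 19.8, 15.8 and 42.7 CPM against 65.1, 56.2 and 48.2 CPM. Fscn1 of this list went the other way and made up the whole sum in Ptgs-competent replicates 2 and 3, and Flt3 was at 0 in every Ptgs-deficient library. The higher sums came mainly from H2-DMb2 and Ccl17, with Ccl22 in a single library. Ccl17 was counted 0 times in each Ptgs-competent library and 134, 288 and 149 times in the Ptgs-deficient ones, and the part of this list was not tested either. Platelet markers, 7 of 10 at 0 throughout and the rest carried mainly by Pf4, summed to 5810 to 11822 CPM against 2618 to 3249 CPM, opposite in direction to Pdgfb, and Ppbp among them was called lower in Ptgs-deficient TAMs (adjusted p of 0.0324 in edgeR). Neutrophil markers, with Ly6g, Elane and Mpo at 0, summed to 621 to 724 CPM against 452 to 532 CPM, in the Ptgs-competent libraries mainly from S100a8 and S100a9. Retnlg of the same list was higher in every Ptgs-deficient library, at 20.2, 59.9 and 16.2 CPM against 123, 114 and 180.2 CPM.

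**Figure D4:**
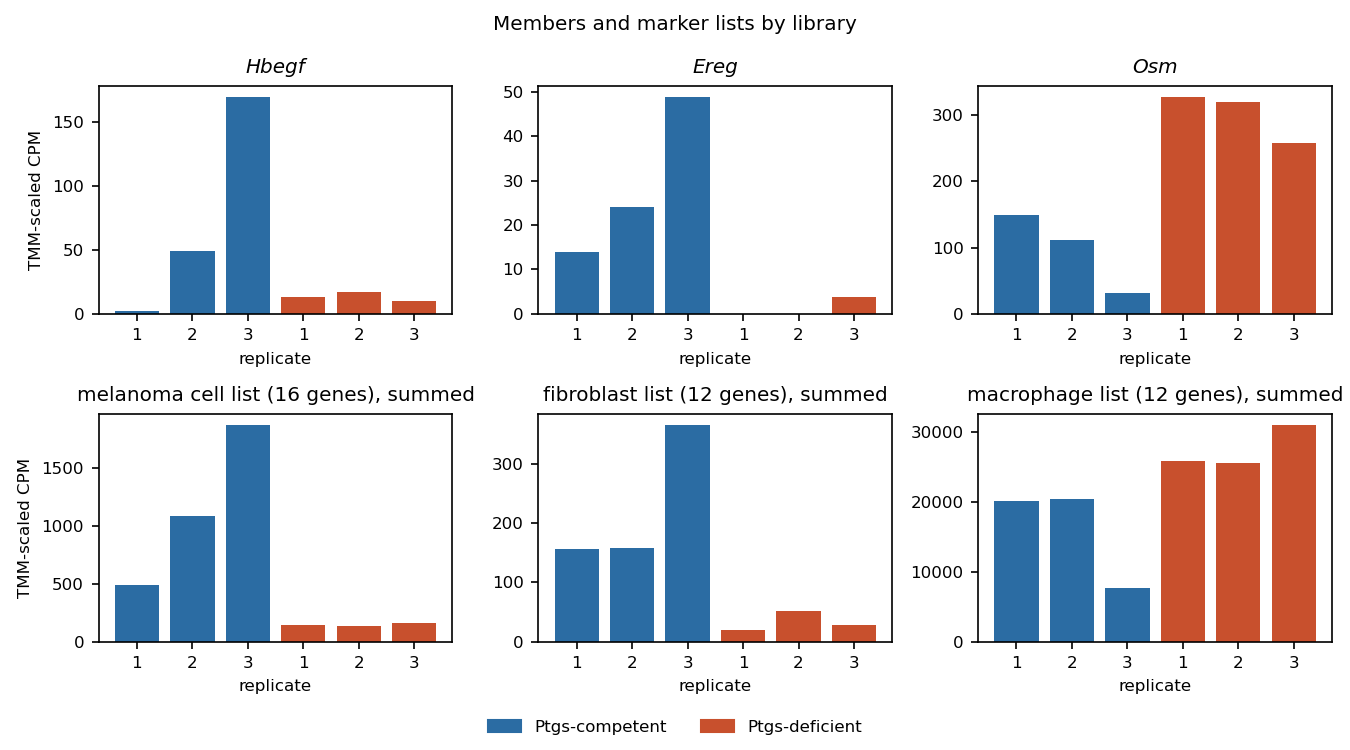
TMM-scaled CPM (y axis, from 0) of Hbegf, Ereg and Osm above the summed CPM of the melanoma cell, fibroblast and macrophage lists, 1 bar per library (x axis, replicates 1 to 3 of each group). Hbegf, Ereg and the melanoma and fibroblast sums are highest in Ptgs-competent replicate 3, where Osm (31.7 CPM) and the macrophage sum (7602 CPM) are lowest.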

How the data were processed

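RNA of sorted TAMs was sequenced from 6 libraries, 3 per group. Libraries were made from 800 pg of total RNA with a kit that reads transcript 3′ ends, and no molecular identifiers were stated. The authors deposited raw counts per gene: reads were trimmed with BBDUK, fqtrim and cutadapt, aligned to GRCm38 with STAR and assigned to Ensembl genes by featureCounts. The versions of these tools, whether counting used strand, and how multi-mapping reads were treated are not given in the sources used here. If strand was not used, reads of Igf1, Ereg and Pdgfb cannot be told from those of the antisense genes that overlap them (Igf1os, Gm19610 and Gm41361).

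Counts were analysed in R 4.3.3. Genes passing filterByExpr of edgeR 4.0.16 (minimum count 10, minimum total 15) were TMM-scaled and compared by the two-sided quasi-likelihood test (glmQLFit, glmQLFTest), and p-values were adjusted over all tested genes by Benjamini-Hochberg. The SE of a log2 ratio is its size over the root of the F statistic. Calls needed an adjusted p no higher than 0.05 and a log2 ratio of at least 1.5 up or down, as in the study. Where a group held no count above the floor of 3 per library, the fold was computed against that floor as a lower bound. Floors cover counting error only. The code was tested on simulated data. Positions are from GENCODE M21 (GRCm38), 1-based, over the whole gene. Replicates are pools of tumors, so p-values measure the spread between pools.

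Named were all members, the 4 tested genes with the smallest p in each pathway list, receptors and Adam17 set beside their ligands, and the 5 genes most like the member with the smallest p. Members and lists were chosen with earlier results of these data known. Samples were grouped by the genotype label. Alternatives were the edgeR likelihood ratio test, DESeq2 1.42.0, limma 3.58.1 voom with quality weights, RLE scaling, library totals alone, no filter, a replicate block and leaving out each library.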

Additional observations from a re-analysis of the deposited data

How the results depend on the processing

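No member was called in the edgeR quasi-likelihood test, with RLE scaling, with library totals alone or without any single library. The likelihood ratio test called 2 members and 6 pathway genes (241 genes in all), DESeq2 2 and 8 (328), voom with quality weights 1 and 4 (123), and no filter on low counts 2 and 7 (252). The members called were Igf1 and Nrp1, and for voom Nrp1 alone. Library totals alone gave 21 genes in all and RLE scaling 19, as in the comparison reported. Without single libraries 0 to 25 genes were called, 0 of them without Ptgs-competent replicate 1 (1231 at an unadjusted p under 0.05), 11 without Ptgs-competent replicate 2, 25 without Ptgs-competent replicate 3 and 2, 4 and 3 without Ptgs-deficient replicates 1, 2 and 3.

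With a replicate block, 77 genes, 1 member (Igf1) and 2 pathway genes (Gas6 and Mmp14) were called. The numbers did not pair the libraries, since deviations of same-numbered libraries correlated at -0.0488, -0.0224 and -0.0218 and no library correlated best with its own number.

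Of 130 values of members under alternatives 121 kept their direction. Areg was positive with voom (1.95) and with the block (0.45) and ran from -0.86 to 0.19 without single libraries, Csf1 was positive with voom (0.34), and Tgfb1 ran from -0.88 to 0.24 without single libraries. The median log2 fold change of all genes was 0.39 with voom and 0.26 with the block, beside 0.02 in the comparison reported. The cause of these changes was not tested. Pdgfb, Ereg, Areg and Csf1 held 0 counts in some libraries, and the cause of these zeros was not tested. A level under the floor of 3 counts cannot be told from 0 at this depth.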
